A study of Mus musculus with 6 samples.

Results

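The genes described here are 9 genes of tendon and of the myotendinous junction, read in the gastrocnemius (calf) muscle of mice with and without SPARC. They are Tnmd, Scx, Mkx, Chad, Cilp, Cilp2, Angptl7, Col22a1 and Acan, chosen by name, and each had exactly 1 probe set that names this gene alone, so 9 of the 19938 genes on the array with such a probe set were followed. All 9 passed the filter on dim genes and were tested. Total RNA of 3 wild type and 3 Sparc knockout males aged 12 weeks was hybridised, 1 array each. Both genotypes carry the strain label B6;129S-Sparctm1Hwe/J, the knockouts are labelled as homogenous for the loss of SPARC, and no treatment is named. The study's title places the comparison in work on SPARC and glucose tolerance. The labels give the tissue as muscle, and they do not say how much tendon was kept at dissection. Each array was taken as 1 mouse from the wording of the design, and p-values measure the spread between these arrays.

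Muscle fibres end at the myotendinous junction, where their folded membrane is anchored through integrins and laminins to the collagen of the tendon. Tendon cells make a matrix of parallel collagen fibrils with small proteoglycans, and where a tendon is compressed near bone its cells also make matrix typical of cartilage. SPARC is a secreted matricellular protein that binds collagen and takes part in the assembly of collagen fibrils.

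After the submitters' RMA processing the arrays had median intensities of 40.5 to 44.7. Such processed values do not compare the brightness of the hybridisations. Sparc itself read between 3393 and 3750 in the wild types and between 56.9 and 107 in the knockouts (log2 change -5.46 ± 0.20 SE, limma adjusted p = 2.08e-05), with a wide gap between the labelled groups. The labels do not name the part of the gene that the allele lacks. Knockout array 2 lay between the other knockouts and the wild types on the first principal component, at 2.45 against 19.8 and 26.5 and against -16.8 to -15.8. All 13 skeletal muscle markers were above the dim filter, and their summed intensity was 94826 to 95105 in wild type and 84547 to 93590 in knockout arrays. Tendon cell markers were present as well. The summed intensity of the 7 listed (Tnmd, Scx, Mkx, Fmod, Kera, Comp and Thbs4, of which 7 were above the dim filter) was 3258 to 4661 in wild types and 5248 to 9428 in knockouts. Fmod and Thbs4 were the brightest of the 7 and weigh most in this sum. The log2 changes of the single genes ran from 0.07 to 1.15, and 0 of the 7 passed the adjusted threshold by limma. In whole muscle, a change in the number of cells of a type and a change in RNA per cell cannot be told apart.

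None of the 9 genes passed the test, beside 0.995% of all 16487 genes tested (limma on log2 intensity, Benjamini-Hochberg adjusted p under 0.05 over all genes, either direction). At so small a share, 0 of 9 does not set these genes apart. The mean log2 intensity was higher in the knockouts for 9 of 9, where 50% of all genes had a positive change, and the median change of the 9 was 0.26 against 5.34e-05 for all genes. At an unadjusted p of 0.05, 3 were higher and 0 lower (Tnmd, Cilp and Acan), beside 8.16% of all genes higher and 10.3% lower. All knockout arrays lay above all wild types in 3 (Tnmd, Scx and Acan) and below them in 0, beside 11.1% and 13.8% of all genes. The sign of 4 of the 9 (Mkx, Chad, Angptl7 and Col22a1) turned when 1 array was left out, as given with each gene.

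**Figure D1:**
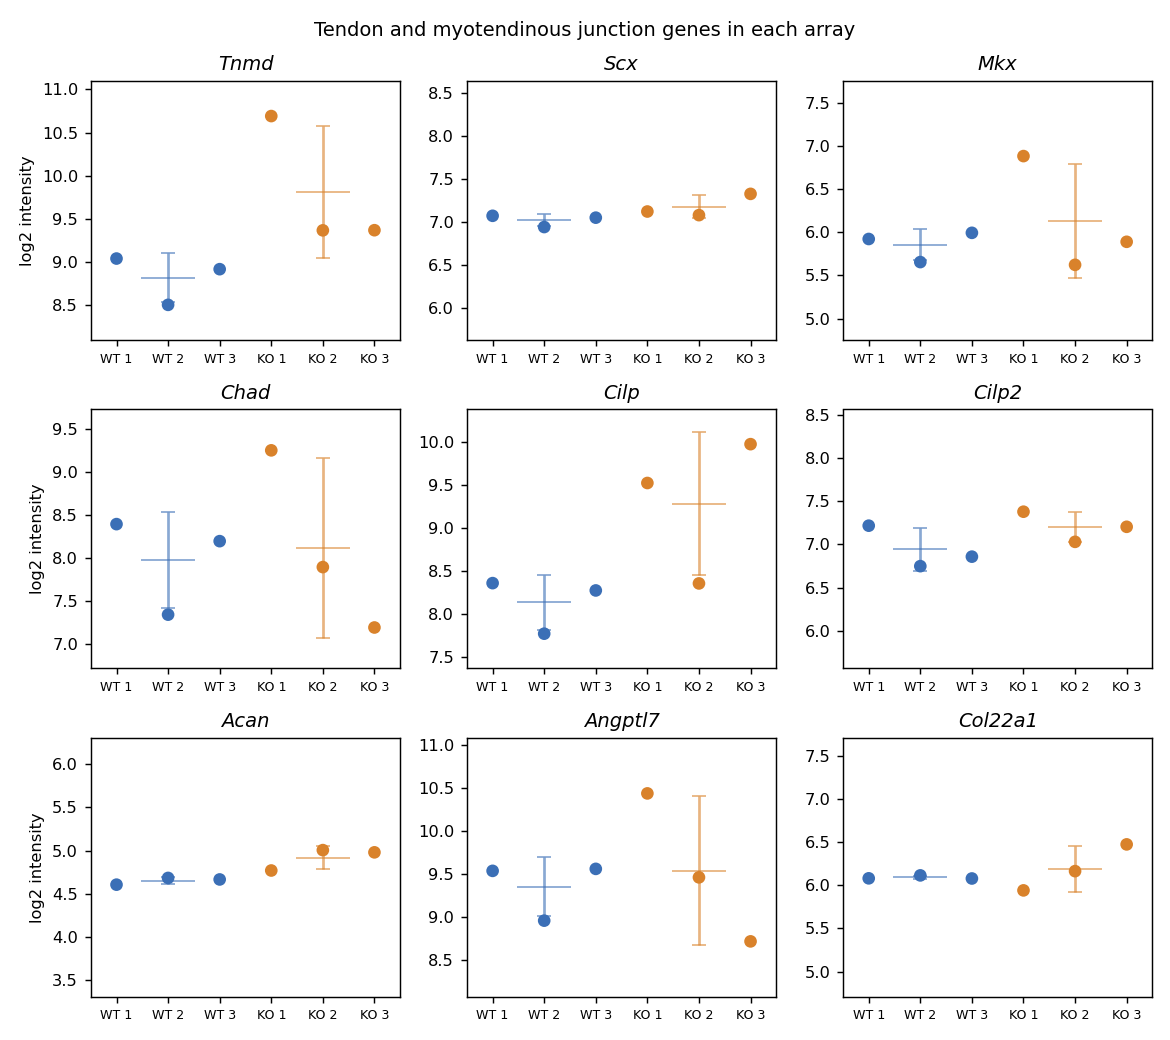
Log2 intensity of the 9 genes in the 3 wild type (WT, blue) and 3 Sparc knockout (KO, orange) arrays; points are arrays, horizontal lines group means and bars their SD (n = 3), and every panel spans the same log2 range. Knockout array 1 is the highest array for Tnmd, Mkx, Chad, Cilp2 and Angptl7, and knockout array 3 for Scx, Cilp and Col22a1.

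Tnmd encodes tenomodulin, a membrane glycoprotein made by mature tendon cells and used as their marker. Its intensity was 526, 363 and 483 in wild type arrays 1, 2 and 3 and 1653, 660.05 and 661 in knockout arrays 1, 2 and 3. Every knockout array was above every wild type array, and knockout array 1 stood far above the other two knockouts, which were nearly equal. On the log2 scale the means were 8.82 ± 0.28 (SD, n = 3) and 9.81 ± 0.76 (SD, n = 3). The log2 change, always given as knockout minus wild type, was 0.99 ± 0.33 (SE), a 1.98-fold higher mean, with a 95% interval of 0.24 to 1.74 and an adjusted p of 0.165. Without knockout array 1 the change was 0.55 (adjusted p = 0.116).

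Scx and Mkx are the transcription factors of the group. Scx encodes scleraxis, a basic helix-loop-helix factor that marks tendon progenitors and is needed for tendon to form. It read 135, 123 and 133 in the wild types and 139, 135 and 160.49 in the knockouts. The groups did not overlap, but the lowest knockout (135.29) was barely above the highest wild type (134.56), and they overlapped after each array was centred on its median. The log2 change was 0.15 ± 0.10 (SE; interval -0.08 to 0.39, adjusted p = 0.476). Mkx encodes Mohawk, a homeobox factor that supports collagen production in tendon. It read 60.6, 50.4 and 63.7 in the wild types and 118, 49.3 and 59.3 in the knockouts. Only knockout array 1 was above the wild types, and knockout array 2 was the lowest array. The log2 change of 0.28 ± 0.28 (SE; interval -0.37 to 0.92, adjusted p = 0.670) became -0.10 without knockout array 1.

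Cilp had the largest change of the 9 over all 6 arrays, and a smaller one than Tnmd (0.80 against 1.21) without knockout array 3. It encodes cartilage intermediate layer protein, a secreted protein of cartilage and tendon that binds TGF-beta. Its intensity was 328.25, 219 and 309.51 in the wild types and 734, 327.46 and 1002 in the knockouts. Knockout arrays 1 and 3 were high, and knockout array 2 lay just below wild type array 1, so the groups met. The log2 means were 8.14 ± 0.32 and 9.28 ± 0.83 (SD, n = 3 each), and the change was 1.15 ± 0.36 (SE), or 2.21-fold, with an interval of 0.33 to 1.97 and an adjusted p of 0.148. Without knockout array 2 the change was 1.61 and passed over all genes (adjusted p = 0.00901), and without knockout array 3 it was 0.80 (adjusted p = 0.258). Cilp2, its paralogue, read 149, 108 and 116 in the wild types and 167, 131 and 148 in the knockouts. Wild type array 1 reached the level of knockout array 3, and the log2 change was 0.26 ± 0.14 (SE; interval -0.07 to 0.59, adjusted p = 0.380).

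Chad and Angptl7 were spread most widely within the genotypes. Chad encodes chondroadherin, a leucine-rich repeat protein of cartilage and tendon that binds collagen and integrins. It read 336, 162 and 293 in the wild types and 608, 238 and 147 in the knockouts. Its highest and lowest arrays were both knockouts, with the 3 wild types between them. The log2 change was 0.14 ± 0.47 (SE; interval -0.94 to 1.21, adjusted p = 0.923), and it was -0.43 without knockout array 1 and -0.18 without wild type array 2. Angptl7, an angiopoietin-like secreted glycoprotein, read 744, 498 and 756 in the wild types and 1386, 706 and 422 in the knockouts. Again the extremes were knockout arrays 1 and 3, with the wild types between. Its log2 change was 0.19 ± 0.37 (SE; interval -0.66 to 1.03, adjusted p = 0.848), and -0.26 without knockout array 1.

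Acan and Col22a1 varied least among the wild types. Acan encodes aggrecan, the large proteoglycan of cartilage, which tendon holds in its compressed zones. It read 24.3, 25.7 and 25.4 in the wild types and 27.3, 32.1 and 31.5 in the knockouts, below the median of each array but above the dim filter. All knockouts were above all wild types, by a small margin in knockout array 1. The log2 change was 0.27 ± 0.11 (SE; interval 0.03 to 0.51, adjusted p = 0.231). Col22a1 encodes a collagen that sits at the myotendinous junction, where muscle fibres make it. It read 67.7, 69.3 and 67.6 in the wild types and 61.4, 71.7 and 88.9 in the knockouts. The knockouts lay on both sides of the tightly grouped wild types, with knockout array 1 the lowest array and knockout array 3 the highest. Its log2 change was 0.10 ± 0.14 (SE; interval -0.21 to 0.41, adjusted p = 0.756), and -0.04 without knockout array 3.

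**Figure D2:**
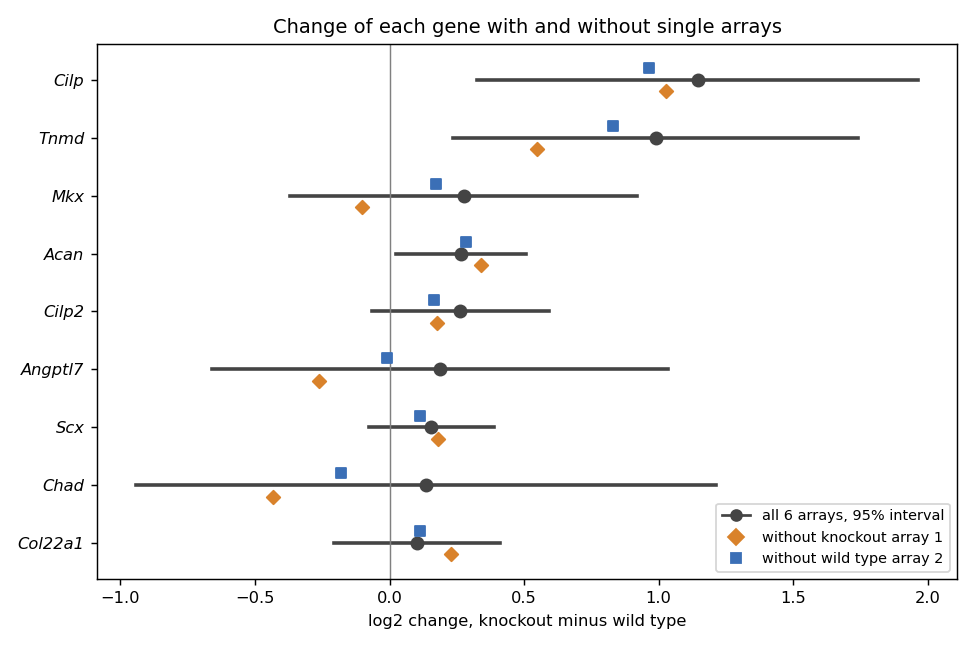
Log2 change (knockout minus wild type, x axis) of each gene: black points are the fit on all 6 arrays with 95% intervals, orange diamonds the change without knockout array 1, blue squares that without wild type array 2. The intervals of Cilp (0.33 to 1.97), Tnmd (0.24 to 1.74) and Acan (0.03 to 0.51) lie above 0 before adjustment for the number of genes, and Chad and Angptl7 move to the other side of 0 without either of those arrays.

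The genes fell into different orders across single arrays. Knockout array 1 was the highest of the 6 for 5 of the 9 (Tnmd, Mkx, Chad, Cilp2 and Angptl7), beside 22.2% of all genes, and knockout array 3 for 3 of the 9 (Scx, Cilp and Col22a1), beside 21.1%. In knockout array 1, Tnmd stood 1.87 above the wild type mean on the log2 scale, Cilp 1.38, Chad 1.27, Angptl7 1.08 and Mkx 1.03. In knockout array 3, Cilp stood at 1.83 and Tnmd at 0.55, while Chad was at -0.78 and Angptl7 at -0.63. The same 2 knockouts were thus alike in Cilp and opposite in Chad and Angptl7. Knockout array 2 was at 0.55 for Tnmd and at 0.35 for Acan, and for the other 7 genes it lay between -0.23 and 0.22. The 9 genes' median stood at 1.03, 0.09 and 0.30 in knockout arrays 1, 2 and 3, against -0.05, 0.03 and 0.003 for all genes.

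The wild types also differed among themselves. Wild type array 2 was the lowest wild type for 7 of the 9, all but Acan and Col22a1, beside 23.2% of all genes. Its log2 difference from the mean of the other two wild types had a median of -0.30 over the 9 genes and of 0.03 over all genes. For Chad the difference was -0.95, for Angptl7 -0.59, for Cilp -0.54, for Tnmd -0.48 and for Mkx -0.30. Only 0.218% of all genes had a larger SD among wild types than Chad, 1.06% than Angptl7, 1.46% than Cilp and 2.40% than Tnmd. For Col22a1 and Acan the shares were 95.9% and 85.3%. The median SD of the 9 was 0.25 among wild types and 0.66 among knockouts, against 0.09 and 0.16 over all genes.

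**Figure D3:**
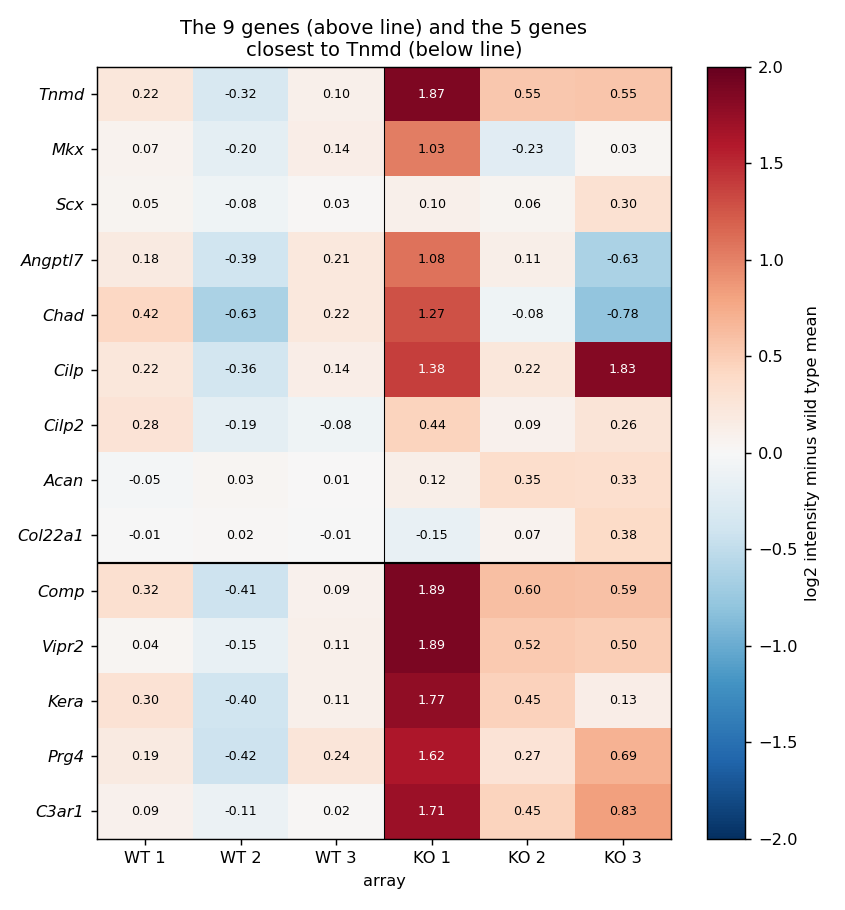
Log2 intensity minus the wild type mean in each array (columns; red above, blue below), for the 9 genes above the line and the 5 tested genes closest to Tnmd below it. Knockout array 1 is at 1.87 for Tnmd and at -0.15 for Col22a1, and knockout array 3 is at 1.83 for Cilp and at -0.78 for Chad.

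Outside the 9, the genes whose values followed those of Tnmd most closely over the 6 arrays were looked for by the root mean square difference of the centred log2 values. The closest was Comp, cartilage oligomeric matrix protein, at 0.06 on the log2 scale, where the median over 16478 genes was 0.71. Comp read 218, 131 and 186 in the wild types and 646, 264 and 262 in the knockouts. Vipr2, a receptor for vasoactive intestinal peptide, followed at 0.10, then Kera (keratocan, a small leucine-rich proteoglycan) at 0.16, Prg4 (lubricin, which coats gliding surfaces) at 0.17, and C3ar1 (a complement receptor of myeloid cells) at 0.17. All but Kera had knockout values wholly above the wild types, beside 11.1% of all genes, and the limma adjusted p-values of all these genes were 0.117 to 0.319. They were picked for likeness to Tnmd over the same 6 arrays, and the groups of Tnmd did not overlap. Their separation therefore follows from the choice and adds nothing to the result for Tnmd. Among the 9 themselves Mkx was nearest to Tnmd, at 0.38, and Col22a1 farthest, at 0.75.

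The upstream sequences of Tnmd and Cilp are shown for their changes over all 6 arrays, and those of Chad and Angptl7 because they shared their highest array with Tnmd but went the opposite way to Cilp in knockout array 3. RefSeq (GRCm38.p6) had such a window for 6 of the 9 genes, read here as the 250 bases before the transcript start. Tnmd lies at chrX:133850758-133851007 (plus strand), Cilp at chr9:65264930-65265179 (plus strand), Chad at chr11:94564797-94565046 (plus strand) and Angptl7 at chr4:148500463-148500712 (minus strand). Sequences run 5′ to 3′, and capitals mark the E-box CANNTG, the motif of basic helix-loop-helix factors such as scleraxis, which reads the same on both strands.
Tnmd: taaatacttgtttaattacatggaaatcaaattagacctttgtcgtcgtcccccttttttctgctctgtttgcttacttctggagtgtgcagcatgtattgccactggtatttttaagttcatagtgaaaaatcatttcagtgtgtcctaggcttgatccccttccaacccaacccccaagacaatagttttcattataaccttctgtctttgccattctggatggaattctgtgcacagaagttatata
Cilp: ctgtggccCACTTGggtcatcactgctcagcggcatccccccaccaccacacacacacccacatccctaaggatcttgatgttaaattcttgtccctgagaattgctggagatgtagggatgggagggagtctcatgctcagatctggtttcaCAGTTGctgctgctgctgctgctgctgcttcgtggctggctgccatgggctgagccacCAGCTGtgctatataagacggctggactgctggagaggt
Chad: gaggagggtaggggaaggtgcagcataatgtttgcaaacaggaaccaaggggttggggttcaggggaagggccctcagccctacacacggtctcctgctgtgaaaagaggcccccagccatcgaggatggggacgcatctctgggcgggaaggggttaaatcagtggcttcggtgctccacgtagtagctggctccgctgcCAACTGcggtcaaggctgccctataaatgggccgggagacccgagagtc
Angptl7: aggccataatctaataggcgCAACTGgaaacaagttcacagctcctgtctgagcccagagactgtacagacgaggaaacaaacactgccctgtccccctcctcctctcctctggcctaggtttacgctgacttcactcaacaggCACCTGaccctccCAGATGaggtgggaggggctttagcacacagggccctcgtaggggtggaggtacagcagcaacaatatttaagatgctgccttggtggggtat
Cilp and Angptl7 each held 3 matches, Chad held 1 and Tnmd 0, and 66.2% of all 32851 windows of this length held at least 1. The match is of letters alone, and no match for Tnmd says only that the letters are not in this window. The letters TATAAA, searched on both strands, were found in Chad (1 match) and in none of the other three, beside 12.4% of all windows.

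Of the wider tendon matrix, the structural proteins around these cells, 22 of 23 tested genes of a list of 24 had a positive change, with a median of 0.78. None passed over all genes by limma. At an unadjusted p of 0.05, 16 were higher and 0 lower, beside 8.16% and 10.3% of all genes, and 8 were higher without wild type array 2. Thbs4, thrombospondin 4, an organiser of tendon matrix, had a change of 1.15 ± 0.23 (SE; adjusted p = 0.0593). Bgn, the small proteoglycan biglycan, was at 1.01 ± 0.22 (SE; adjusted p = 0.0752), Prelp, another leucine-rich repeat proteoglycan, at 0.76 ± 0.18, and Col14a1, a fibril-associated collagen, at 1.01 ± 0.23 (adjusted p = 0.0829 for both). For each of these 4 genes all knockouts were above all wild types. The list's median stood at 1.03, 0.26 and 0.98 in knockout arrays 1, 2 and 3, so that knockout arrays 1 and 3 were both high, as for Cilp but not for Chad or Angptl7. This list shares genes with others and is no separate evidence. Dcn, its brightest gene, is also a fibroblast marker, and Thbs4 is also a tendon cell marker.

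The regulators of tendon formation had changes of -0.63 to 0.39. Of 16 tested genes of 17, 0 passed over all genes by limma. At an unadjusted p of 0.05, 3 were higher and 1 lower (5 and 2 without knockout array 3), beside 8.16% and 10.3% of all genes. The median change was 0.08 (0.03 without knockout array 3). The TGF-beta ligand Tgfb1 and the receptor genes Tgfbr1 and Tgfbr2 were at 0.39 ± 0.10, 0.37 ± 0.10 and 0.35 ± 0.13 (SE; adjusted p = 0.105, 0.117 and 0.204). Six2, a homeobox gene, was at -0.63 ± 0.17 (SE; adjusted p = 0.117), with all knockouts below all wild types.

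At the muscle side of the junction 1 of 20 genes passed, beside 0.321% of all genes that passed as higher. Lama2, the laminin alpha chain of the muscle fibre's basement membrane, rose by 0.75 ± 0.10 (SE; adjusted p = 0.0179). Its log2 values were 8.70, 8.72 and 8.90 in the wild types and 9.62, 9.38 and 9.57 in the knockouts, a clear gap with no array apart. The call was lost after median centring (adjusted p = 0.0562) and without wild type array 1, 2 or 3 (adjusted p = 0.115, 0.135 and 0.0798). At an unadjusted p of 0.05, 9 of the 20 were higher and 2 lower, beside 8.16% and 10.3% of all genes. Without wild type arrays 1 and 2, 4 and 5 were higher. Itgb1, the integrin beta chain of the junction, was at 0.37 ± 0.10 and Ankrd1, a stretch-responsive ankyrin repeat protein, at 1.61 ± 0.44 (SE; adjusted p = 0.109 and 0.117). Tln2, the integrin-linking talin of muscle, was at -0.43 ± 0.10 (SE; adjusted p = 0.0844). Ankrd1 was highest in knockout array 3, at 10.3 against 8.99 and 8.16 in knockout arrays 1 and 2.

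Other cartilage genes had a median change near 0, with single changes of -0.29 to 0.11. Of 16, 13 were above the dim filter (Matn1, Hapln1 and Epyc were not), 6 of these had a positive change, and the median was -0.01. By limma 0 passed over all genes. At an unadjusted p of 0.05 also 0 passed in either direction, beside 8.16% higher and 10.3% lower over all genes. The 4 with the smallest p were Col9a1 at -0.29 ± 0.14, Matn4 at -0.19 ± 0.09, the transcription factor gene Sox6 at -0.24 ± 0.12 and Col11a2 at 0.11 ± 0.12 (SE; adjusted p = 0.322 to 0.700).

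Markers of some other cells moved with the same arrays. All 9 macrophage markers had a positive change, with a median of 0.65. At an unadjusted p of 0.05, 8 were higher, beside 8.16% of all genes, and 5 without wild type array 1. By limma 0 of these markers passed the adjusted threshold. Their summed intensity was 2219 to 2489 in wild types and 5705, 3109 and 3360.2 in knockout arrays 1, 2 and 3, none of the 9 being under the dim filter, and the median change was 0.36 without knockout array 1. Knockout array 1 was thus highest both in these and in Tnmd, and the part of these cells in the result was not tested. Of the 10 fibroblast markers read, 9 had a positive change. At an unadjusted p of 0.05, 4 of these markers were higher and 0 lower, beside 8.16% and 10.3% of all genes. Their median change was 0.23 (0.09 without knockout array 1 and 0.42 without knockout array 3), with summed intensities of 12245 to 13584 in wild types and 17910.1, 14259 and 12700.1 in knockout arrays 1, 2 and 3. Wild type array 2, the lowest wild type for 7 of the 9 genes, had the highest fibroblast sum of the wild types, a sum in which Dcn and Gsn are the brightest genes. The 5 bone markers read summed to at most 266 in wild types and 255 in knockouts, with Alpl and Phex the brightest. The 7 adipocyte markers read had a median change of -0.48. Their sums of 2848, 2527 and 2333 in knockout arrays 1, 2 and 3 all lay inside the wild type range of 2279 to 4094. Wild type array 1 was low in them (median -0.70 from the wild type mean, against 0.28 and 0.41 in wild type arrays 2 and 3), and their median change was -0.91 without it and -0.30 without wild type array 3. Of the 13 skeletal muscle markers, 8 had all knockouts below all wild types and 2 above, beside 13.8% and 11.1% of all genes. The list's median stood at -0.15, -0.05 and -0.11 in knockout arrays 1, 2 and 3, lowest where Tnmd was highest. Its part in the result was not tested. The endothelial, Schwann cell, skeletal muscle and erythroid lists had median changes of 0.003, -0.01, -0.11 and -0.48 over 7, 5, 13 and 2 genes, the last with Alas2 at -0.84. The brightest genes of these lists were Cdh5 and Pecam1 (endothelial), Pmp22 and Cnp (Schwann cell), Acta1 and Atp2a1 (muscle) and Alas2 and Slc4a1 (erythroid), and those of the lists before them Lyz2 and Mrc1 (macrophage), Dcn and Gsn (fibroblast) and Fabp4 and Retn (adipocyte). Summed intensities of wild types and knockouts overlapped for the endothelial list (2879 to 3187 against 2191 to 3844) and the Schwann cell list (1523 to 1906 against 1496 to 2456), and the 2 erythroid genes read summed to 116 to 141 against 78.7 to 105. No gene of these other cell type lists passed over all genes by limma.

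**Figure D4:**
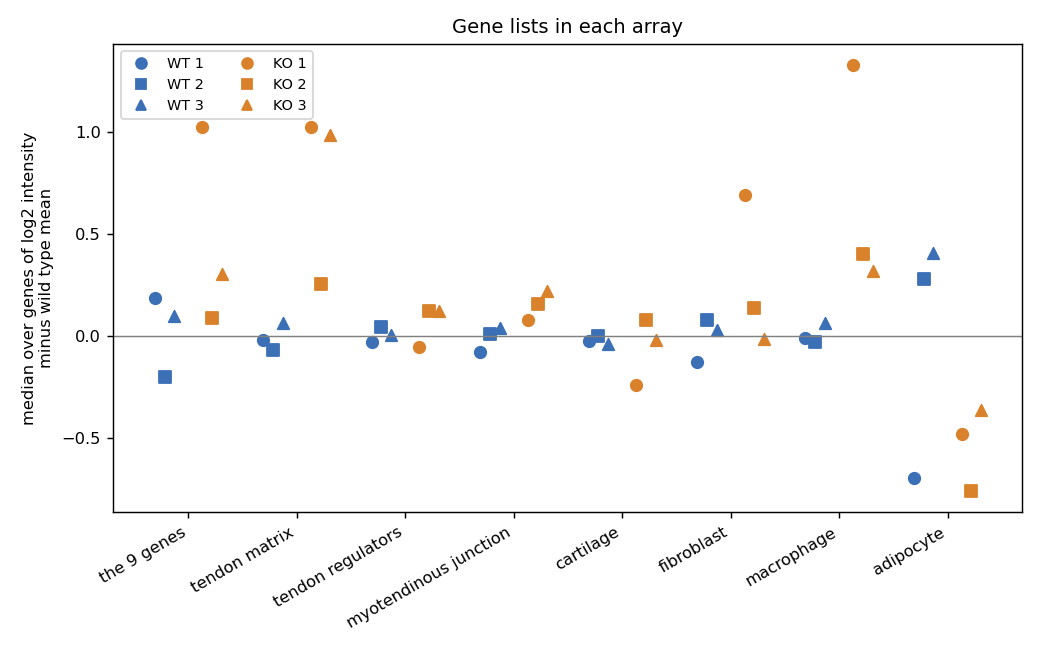
Median over each list's tested genes of the log2 intensity minus the wild type mean (y axis), in each wild type (blue) and knockout (orange) array; the marker shape gives the replicate number. Knockout array 1 is at 1.03 for the 9 genes, 1.03 for the tendon matrix and 1.33 for the macrophage markers, and at -0.24 for the cartilage genes.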

How the data were processed

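RNA of gastrocnemius muscle was hybridised to Affymetrix arrays. The intensities deposited by the authors are linear RMA summaries, 1 per probe set (Affymetrix Expression Console 1.3.0.187, credited to the submitters' processing notes). RMA shrinks differences between dim values; no detection calls were used, and precision rests on the number of arrays. No genome build is named for the probe sets in the sources used here. Log2 was taken with no offset, and 0 value columns were unmapped. Of 35556 probe sets, 21789 had 1 gene symbol in the platform annotation, which can be old, and the brightest stood for its gene. Genes under the 25th percentile of all probe-set means (3.90 as log2), 3451 in number, were dropped. The test was limma 3.58.1 under R 4.3.3 (lmFit, eBayes with variance trend, two-sided, Benjamini-Hochberg over 16487 genes, threshold 0.05), also tested on simulated data. Intervals are 95%, unadjusted. Errors of group means are SDs, those of changes moderated SEs.

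The genes and lists were chosen with earlier results of these data known. Named besides the 9 were Sparc, the 5 genes closest to Tnmd, in the tendon matrix, regulator, junction and cartilage lists the called genes or at least the 4 with the smallest p, and the brightest of other cell type lists. Alternatives were 2 further normalizations, other eBayes settings, array weights, dim filters, averaged probe sets, an offset of 16, a replicate block, and leaving out each array. Those of lists and of Lama2 were added after the data were seen.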

Additional observations from a re-analysis of the deposited data

How the results depend on the processing

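No gene of the 9 passed under any of the 10 alternatives that kept all 6 arrays. The other eBayes settings, dim filters, averaged probe sets and replicate block left the changes of the 9 as they were. Those settings could not turn a sign. Median centring, a second quantile normalization, array weights and the offset did move the changes, and none of the 9 turned sign under them. Over all genes, 164 passed, against 103 after median centring and 329 with array weights. Leaving out 1 array gave 27 to 1017 genes over all (32, 30 and 27 without wild type arrays 1, 2 and 3, and 1017 without knockout array 2). It gave 0 to 1 of the 9 (Cilp without knockout array 2) and 3 to 5 of the 9 with groups that do not overlap. Groups separate more easily with fewer arrays, and the share over all genes was not computed for the alternatives. The 3 to 5 can therefore not be set against the count from all 6 arrays. With 1 array left out, the change ranged from -0.10 to 0.53 for Mkx, -0.43 to 0.59 for Chad, -0.26 to 0.60 for Angptl7 and -0.039 to 0.23 for Col22a1; for Angptl7 it was -0.01 without wild type array 2. Tnmd ranged from 0.55 to 1.21, Cilp from 0.80 to 1.61, Scx from 0.08 to 0.20, Cilp2 from 0.17 to 0.40 and Acan from 0.22 to 0.34. After median centring Scx overlapped, leaving 2 of the 9 with separate groups; after a second quantile normalization Cilp joined, giving 4. Acan fell under the stricter dim filter and was not tested there. The cause of these shifts was not tested.

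The replicate numbers are shared by the genotypes. Over all genes tested, same-numbered arrays did not deviate together (correlations of deviations 0.01, 0.08 and -0.02 for numbers 1, 2 and 3). Not every array correlated best with its own number. Among the 9 genes, array 2 was the lowest of both genotypes for Tnmd, Scx, Mkx, Cilp and Cilp2, and array 1 for Acan. For Chad, Angptl7 and Col22a1 the lowest arrays had different numbers. A link of these genes to the replicate number was not tested. With the replicate number as a block 123 genes passed by limma, 0 of the 9 among them, and the adjusted p was 0.0527 for Cilp and 0.0833 for Tnmd. The SE went from 0.36 to 0.19 for Cilp and from 0.33 to 0.20 for Tnmd, and rose slightly for Scx and Acan.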
